A study of Elodea nuttallii and Chlamydomonas reinhardtii with 18 samples.

Results

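Shoots of the waterweed Elodea nuttallii held for 2 h at Babeni site 1 in the River Olt were compared with shoots held for 2 h at Valcea. The comparison takes every Elodea library that the sample titles assign to either place, 3 at Babeni site 1 and 3 at Valcea, which is 6 of the 9 Elodea libraries and 6 of the 18 samples of the study. The study is titled as work on mercury toxicity in situ, and no mercury level is given in the sources used here. All Elodea shoots were gathered at a clean site, and their top 10 cm with the apex was taken. Both groups thus share plant source, exposure time and tissue section, and differ in the place where they stood. Elodea at Babeni site 2 and the green alga exposed at the same places are the other samples.

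Elodea nuttallii lives fully submerged, and its thin leaves take up carbon, nutrient ions and metals straight from the water. Its shoots carry out photosynthesis, in which antenna proteins collect light, photosystems drive electron flow and the Calvin cycle fixes carbon. In plants at large, receptor kinases in the plasma membrane read signals outside the cell, and calcium sensors and WRKY transcription factors act after them.

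The Babeni site 1 libraries held 4578385 to 4985937 reads and the Valcea libraries 2875062 to 4875382, over 58110 assembled transcripts. Values are normalised read counts (CPM, as scaled by the authors), always in the order of replicates 1, 2 and 3. At these depths 3 reads amount to 0.572 to 0.645 CPM at Babeni site 1 and 0.564 to 1.19 CPM at Valcea. Log2 differences are Babeni site 1 minus Valcea on the log2(CPM + 0.5) scale, which understates the change of low transcripts. The words rose, fell and changed are kept for transcripts with a Benjamini-Hochberg adjusted p under 0.05 by limma, over all tested transcripts, and a difference of 2-fold or more. Whether the 3 libraries of a place stem from separate plants is not in the labels, so p covers only the spread between libraries, which may be technical. Transcripts numbered within 1 assembled locus share sequence, and how their reads were split is uncertain. In whole shoots, fewer cells of a type and less RNA per cell cannot be told apart.

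Valcea replicate 3 stood apart from the other Valcea libraries in a set of abundant transcripts. In 122 transcripts with at least 50 CPM in both replicates 1 and 2, replicate 3 lay more than 4 times below both, and the set summed to 95690 and 95321 CPM in replicates 1 and 2 and to 11622 CPM in replicate 3. The Babeni site 1 libraries lay near that lower level, at 13604 to 20452 CPM, and 30 of the 122 passed as fallen. The same search found 0 transcripts for Valcea replicates 1 and 2 and at most 1 for a library of Babeni site 1. Its most abundant member has no description and had 31560, 29463 and 3369 CPM at Valcea (Locus_97270_Transcript_1_1_). The set has 38 described members, with names such as cell wall-associated hydrolase, senescence-associated protein, rRNA intron-encoded homing endonuclease and photosystem II protein D2. Among these, picked after their values were seen, maturase K, a plastid-encoded splicing protein in plants, stood at 6009.98, 7713 and 959 CPM at Valcea (Locus_1862_Transcript_1_1_). A ribosomal protein S10 transcript had 2534, 2402 and 351 CPM at Valcea and 441, 374 and 543 CPM at Babeni site 1 (Locus_2749_Transcript_1_1_), and its fall (log2 difference -1.52 ± 0.50 (SE), adjusted p = 0.047) was called in 1 of 6 fits that left out a library. The part of this set in other results was not tested. Counts without this or another single library are given beside the counts they move by more than 1.5 times.

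Of 56752 tested transcripts, 2369 rose at Babeni site 1 (4.17%) and 2782 fell (4.90%), so 9.08% changed. The median log2 difference over all tested transcripts was 0.03. Without Valcea replicate 3 the counts were 3432 risen and 3333 fallen. The 3 Babeni site 1 libraries all lay above the 3 Valcea libraries in 15.4% of tested transcripts and all below them in 15.6%, and 2284 of the risen and 2674 of the fallen did not overlap. The median change was 2.49-fold among the risen and 2.56-fold among the fallen, and 193 rose and 339 fell at least 4-fold. The changed transcripts came from 4153 loci, and 11 of these held both a risen and a fallen transcript.

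The fallen transcripts were on the whole the more abundant ones. Among transcripts with a mean under 2 CPM over the 6 libraries, 4.28% rose and 2.68% fell. In this low range the risen share was 6.67% without Valcea replicate 3, 2.12% when Babeni site 1 replicate 2 was left out and 2.47% when its replicate 3 was. The fallen share there was 1.62% without Valcea replicate 2, and 1.75% and 1.78% when Babeni site 1 replicate 1 or 3 was left out. Among the 1298 with 100 CPM or more, 2.62% rose and 11.2% fell. The risen transcripts together went from a mean of 14223 CPM per Valcea library to 36973 CPM per Babeni site 1 library. The fallen went from 127131 to 43865 CPM. Outside the 122 transcripts that were low in Valcea replicate 3, the fallen summed to 117231 and 41730 CPM, and 10.9% of those with 100 CPM or more fell. Without Valcea replicate 3, 13.5% of transcripts with 100 CPM or more fell and 2.31% rose. These levels are not scaled to transcript length.

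**Figure D1:**
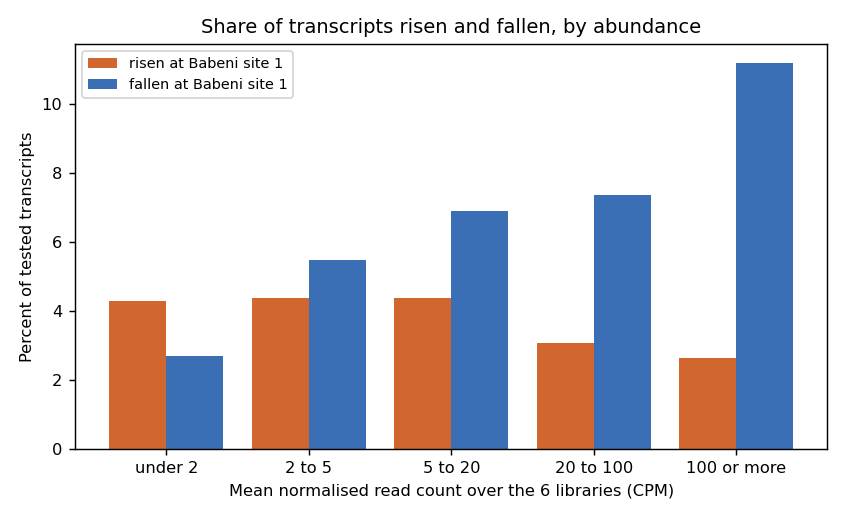
Percent of tested transcripts that rose or fell at Babeni site 1 against Valcea (vertical axis) in 5 ranges of mean CPM over the 6 libraries (horizontal axis). The fallen share climbs from 2.68% under 2 CPM to 11.2% at 100 CPM or more, while the risen share goes from 4.28% to 2.62%.

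Functions can be named only for transcripts that the authors described, and they described a transcript only if it changed in their own tables of at least 1 of 3 comparisons of Elodea. Of 4685 described and tested transcripts, over 2933 loci, 969 rose (20.7%) and 1162 fell (24.8%), with a median log2 difference of -0.18. Every list below is thus made of transcripts picked on these same samples, so the direction of its counts is no independent evidence. Its counts are read against 20.7% and 24.8%. Among the 2152 described transcripts that are outside the authors' table of this comparison, 28 rose (1.30%) and 2 fell (0.0929%), which is 1.39% changed. The authors did not call these on the same libraries, so this low share was largely fixed in advance and is no independent check.

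The largest rises and falls were taken from described transcripts with at least 10 CPM at the higher place and no overlap between the places. For these, separate libraries were thus a condition of choice. The largest rises included proteins that act at the cell surface and in defence. A polygalacturonase-inhibiting protein, which blocks wall-degrading enzymes of pathogens, stood at 1.99, 0.7099 and 0.376 CPM at Valcea and 15.5, 10.3 and 10.3 CPM at Babeni site 1 (Locus_1061_Transcript_1_1_). All its Babeni site 1 libraries lay above all its Valcea libraries, where 1 of 3 exceeded the level of 3 reads, and the log2 difference was 3.16 ± 0.34 (SE), adjusted p = 8.3e-06. An RPM1-like disease resistance protein, of a family that detects pathogen effectors inside the cell, went from 0.794, 1.18 and 3.01 to 11.7, 16.4 and 16.98 CPM (Locus_6486_Transcript_15_16_, 2.96 ± 0.30). A cysteine proteinase like RD21A, a protease of the vacuole in Arabidopsis, had 3.97, 13.01 and 6.21 CPM at Valcea and 46.3, 93.9 and 40.4 CPM at Babeni site 1 (Locus_18814_Transcript_1_1_). Its groups did not overlap, replicate 2 was the highest library at both places, and the log2 difference was 2.93 ± 0.33 (SE), adjusted p = 1.4e-05. A YODA-like MAP kinase kinase kinase, which in Arabidopsis acts in stomatal and embryo patterning, went from 1.59, 2.13 and 2.26 to 11.5, 10.3 and 9.89 CPM (Locus_16688_Transcript_13_14_, 2.16 ± 0.22).

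The largest falls were steeper and came from higher levels. A SLAC1-like anion channel, which in Arabidopsis releases anions from guard cells as stomata close, had 54.01, 50.9 and 42.3 CPM at Valcea and 0.383, 0.763 and 0.4299 CPM at Babeni site 1 (Locus_5516_Transcript_4_5_). Only 1 of the 3 Babeni site 1 libraries exceeded the level of 3 reads, and the log2 difference was -5.61 ± 0.27 (SE), adjusted p = 4.9e-09. All 4 described transcripts of that locus fell, and together they held 141 to 174 CPM at Valcea and 2.11 to 4.58 CPM at Babeni site 1. A transcript with a plant-specific TIGR01589 domain went from 59.2, 49.7 and 47.97 to 1.34, 1.34 and 2.36 CPM (Locus_2949_Transcript_3_4_, -4.62 ± 0.25). A prenyl transferase-like transcript, of enzymes that join isoprenoid units, had 1238, 1269 and 1216 CPM at Valcea and 138, 172 and 179 CPM at Babeni site 1 (Locus_2606_Transcript_1_1_). Its 3 Valcea libraries lay close together and far above those of Babeni site 1, with a log2 difference of -2.93 ± 0.12 (SE), adjusted p = 1.3e-09. A mitochondrial uncoupling protein, which lets protons re-enter the matrix, was as even, with 60.8, 59.4 and 60.4 and then 8.23, 8.396 and 9.24 CPM (Locus_5285_Transcript_4_4_, -2.74 ± 0.16).

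**Figure D2:**
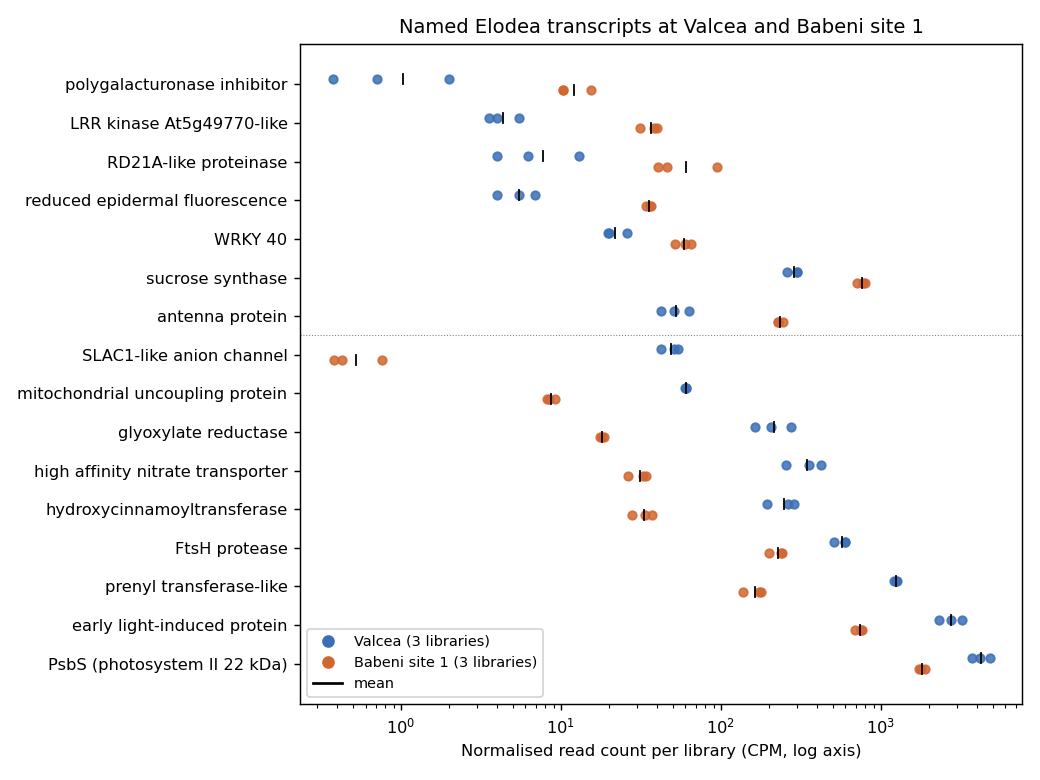
CPM of 16 named Elodea transcripts in each of the 6 libraries (horizontal log axis), Valcea in blue and Babeni site 1 in orange, with black bars at the means. The 7 transcripts above the dotted line rose and the 9 below it fell, and the 3 libraries of a place overlap with those of the other in none of these 16. For those taken from the largest rises and falls, the absence of overlap was a condition of choice.

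Receptor-like kinases were the list with the most risen members. Of 142 tested transcripts over 87 loci, 75 rose (52.8%) and 8 fell, with a median log2 difference of 1.10. The list summed to 533, 502 and 554 CPM at Valcea and to 1009, 1076 and 997 CPM at Babeni site 1. A loss of single libraries left 53 to 68 risen. The fallen numbered 4 without Valcea replicate 1, 5 without Babeni site 1 replicate 2 or by DESeq2, and 2 with a pseudocount of 2 or a minimum of 5 CPM. Most of these transcripts are low, and the risen numbered 24 with a pseudocount of 2, 30 with a minimum of 5 CPM and 44 by DESeq2.

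By family, leucine-rich repeat receptor kinases had 44 of 72 risen and 2 fallen, with 0 fallen when Valcea replicate 3 or Babeni site 1 replicate 2 was left out and 1 for Valcea replicate 1 or Babeni site 1 replicate 3. L-type lectin kinases, whose outer part resembles legume lectins, had 10 of 18 risen and 2 fallen, or 1 without Valcea replicate 2. A leucine-rich repeat kinase like At5g49770 had 3.97, 5.44 and 3.57 CPM at Valcea and 39.8, 38.2 and 31.2 CPM at Babeni site 1 (Locus_2705_Transcript_30_33_). The lowest Babeni site 1 library lay more than 5 times above the highest of Valcea, and the log2 difference was 2.94 ± 0.19 (SE), adjusted p = 4.3e-08. A transcript of another locus with the same description went from 1.19, 2.37 and 3.198 to 18.96, 14.9 and 18.1 CPM (Locus_3378_Transcript_11_13_, 2.76 ± 0.27). A wall-associated kinase, of receptors bound to pectin, went from 1.19, 5.21 and 4.14 to 33.7, 20.2 and 22.6 CPM (Locus_13015_Transcript_1_1_, 2.84 ± 0.34). A more abundant leucine-rich repeat kinase like At1g56130 had 57.98, 54.2 and 72.6 CPM at Valcea and 145, 205 and 165 CPM at Babeni site 1 (Locus_17735_Transcript_1_1_, 1.47 ± 0.15). Among the fallen was a receptor-like kinase like At5g18500, with 111, 109.6 and 118 and 46.3, 50.9 and 50.7 CPM (Locus_13315_Transcript_5_6_, -1.19 ± 0.12).

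WRKY factors, plant-specific transcription factors of defence and stress, had 12 of 24 transcripts risen over 10 loci, and 2 fallen, with a median log2 difference of 1.11. They summed to 116, 96.5 and 95.01 CPM at Valcea and 209.9, 202 and 209.8 CPM at Babeni site 1. A WRKY 40 transcript had 25.8, 19.9 and 19.8 CPM at Valcea and 59.4, 51.5 and 65.3 CPM at Babeni site 1 (Locus_3786_Transcript_1_1_), and the log2 difference was 1.41 ± 0.15 (SE), adjusted p = 6.2e-06. A WRKY 40 transcript of another locus did not pass, with 19.5, 20.8 and 18.4 and 30.8, 33.4 and 27.5 CPM (Locus_8721_Transcript_4_6_, 0.63 ± 0.15), although its groups did not overlap. The risen numbered 3 with a pseudocount of 2, 4 with a minimum of 5 CPM and 6 by DESeq2. The fallen numbered 0 in each of these 3 settings and 0 or 1 without any single library.

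Calcium signalling transcripts leaned the same way, with 29 of 79 risen (36.7%), 7 fallen and a median log2 difference of 0.62. The risen numbered 18 without Valcea replicate 2, and the fallen 13 without Valcea replicate 3 and 11 without Babeni site 1 replicate 3. With a pseudocount of 2 the risen numbered 8, with a minimum of 5 CPM 12 and by DESeq2 17. Calmodulin-binding proteins, which respond to the calcium sensor calmodulin, had 9 of 20 risen and 0 fallen, or 1 fallen without Babeni site 1 replicate 3. One of them stood at 32.96, 33.8 and 44.96 CPM at Valcea and 98.6, 93.3 and 102 CPM at Babeni site 1 (Locus_12669_Transcript_1_1_, 1.40 ± 0.16). The calcium-dependent protein kinase 26 transcript did not pass, with 20.7, 25.3 and 25.6 and 48.3, 42.9 and 38.05 CPM (Locus_5090_Transcript_1_1_, 0.84 ± 0.15). Immunity and defence proteins had 15 of 40 risen and 10 fallen, the latter share close to that of all described transcripts, and the fallen numbered 6 without Babeni site 1 replicate 3. With a pseudocount of 2 these counts were 5 and 3, and with a minimum of 5 CPM 8 and 6.

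**Figure D3:**
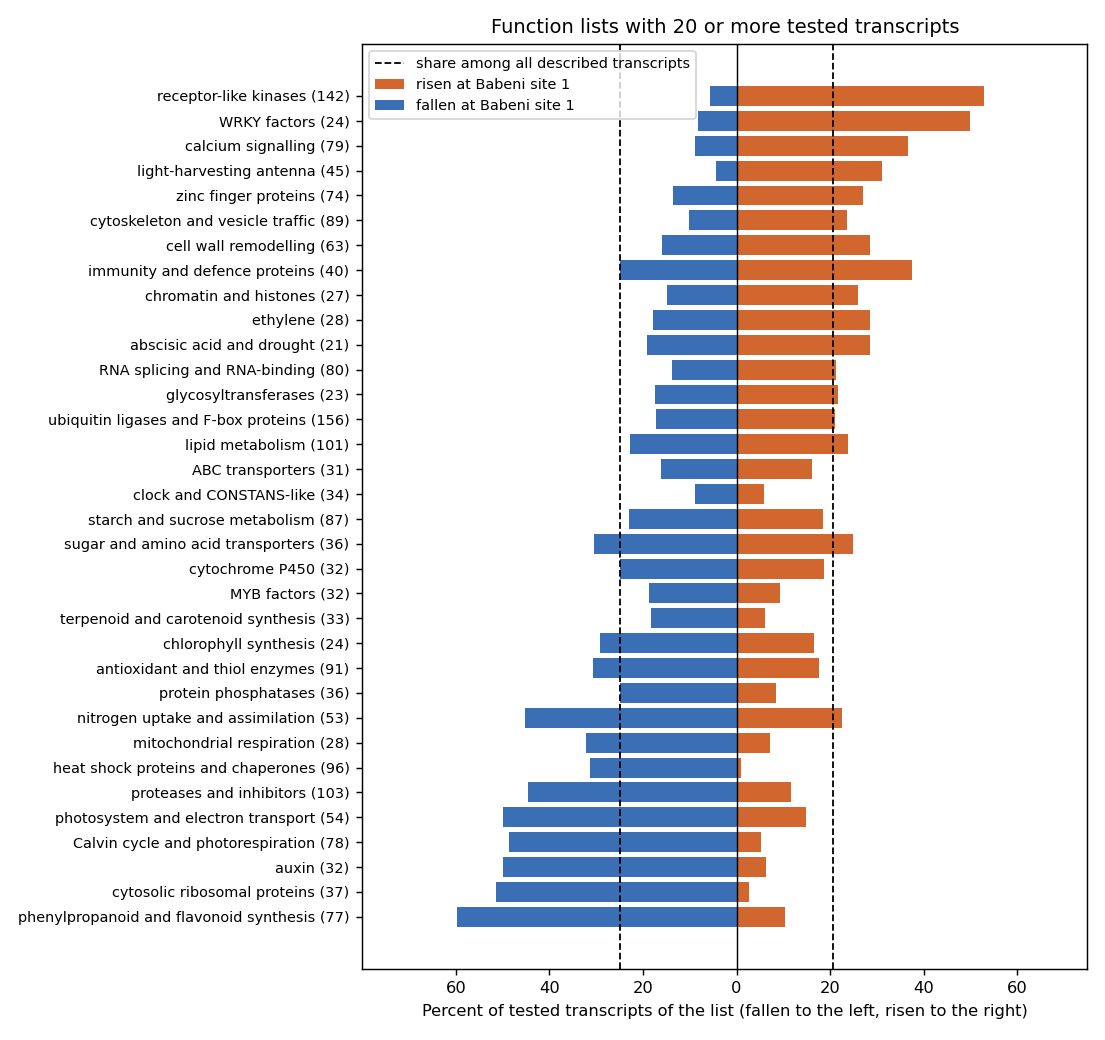
Percent of tested transcripts that rose (orange, to the right) or fell (blue, to the left) at Babeni site 1 in each function list with 20 or more tested transcripts, whose number stands in brackets. Dashed lines mark the shares among all described transcripts, 20.7% risen and 24.8% fallen; receptor-like kinases reach 52.8% risen and phenylpropanoid and flavonoid synthesis 59.7% fallen.

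The parts of photosynthesis moved in different directions. Light-harvesting antenna proteins, which bind chlorophyll and pass on the light energy, had 14 of 45 transcripts risen and 2 fallen, and their sum was 2871, 2611 and 2051 CPM at Valcea and 4512, 3756 and 4255 CPM at Babeni site 1. Photosystem and electron transport proteins had 8 of 54 risen and 27 fallen, and their sum was 13075, 12536 and 9619 CPM at Valcea and 4753, 4576 and 4835 CPM at Babeni site 1. The Calvin cycle and photorespiration had 4 of 78 risen and 38 fallen (48.7%), with sums of 21578, 21987 and 18949 CPM at Valcea and 9232, 8474 and 9555 CPM at Babeni site 1. In each of these 3 sums the groups did not overlap. The median log2 differences were 0.76, -0.99 and -1.02 in that order. Most of the photosystem sum came from the 1 locus of PsbS, a protein described below. PsbS transcripts held 7107 to 9403 CPM at Valcea and 3207 to 3382 CPM at Babeni site 1.

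The 2 falling lists hold 2 and 1 of the transcripts that were low in Valcea replicate 3. Over the fits without 1 library, 19 to 29 photosystem and 34 to 42 Calvin cycle transcripts fell. Without Valcea replicate 1, Babeni site 1 replicate 1 or Babeni site 1 replicate 2, the risen photosystem transcripts numbered 4, 5 and 4. The 2 fallen antenna transcripts numbered 1 without Valcea replicate 2, Valcea replicate 3 or Babeni site 1 replicate 1 and 0 with a pseudocount of 2, a minimum of 5 CPM or DESeq2. With a pseudocount of 2, 7 antenna and 1 photosystem transcripts rose, and with a minimum of 5 CPM 8 and 3. By DESeq2 3 photosystem transcripts rose.

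An antenna protein had 63.1, 50.9 and 42.3 CPM at Valcea and 228, 226 and 244 CPM at Babeni site 1 (Locus_88_Transcript_3_4_), an even and separate level at the latter, with a log2 difference of 2.17 ± 0.14 (SE), adjusted p = 4.1e-08. The type III antenna protein of photosystem II did not pass, with 544, 460.5 and 416 and 762, 734 and 748 CPM (Locus_303_Transcript_12_13_, 0.67 ± 0.12). PsbS, the 22 kDa protein of photosystem II that switches on the release of excess light energy as heat, fell. Its transcript with the most reads had 4788, 4183 and 3713 CPM at Valcea and 1741, 1784 and 1900.0 CPM at Babeni site 1 (Locus_27_Transcript_15_16_), and the log2 difference was -1.22 ± 0.13 (SE), adjusted p = 6e-06, a call that quantile normalization ended. Of 7 described PsbS transcripts, all of 1 locus, 6 fell. A photosystem II stability and assembly factor had 268, 275 and 271 CPM at Valcea, where its libraries were nearly equal, and 59.6, 69.1 and 71.8 CPM at Babeni site 1 (Locus_1310_Transcript_7_9_, -2.02 ± 0.12). The oxygen-evolving complex and PsbP-like and PsbQ-like proteins were mixed, with 7 of 18 risen and 5 fallen. The risen numbered 3 or 4 without Valcea replicate 1, Babeni site 1 replicate 1 or Babeni site 1 replicate 2. The median log2 difference of this group was -0.38. It summed to 894 to 1085 CPM at Valcea and 575 to 640 CPM at Babeni site 1. Photosystem I subunits had 2 of 7 fallen and 0 risen, with a median log2 difference of 0.25. Their sums overlapped, at 124 to 382 CPM at Valcea and 139 to 158 CPM at Babeni site 1. Without any single library 0 or 1 of them fell, and 1 rose without Valcea replicate 2 or 3.

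Early light-induced proteins, which bind chlorophyll and accumulate under strong light, fell in all 3 described transcripts of their locus. One had 3204, 2741 and 2304 CPM at Valcea and 689, 754 and 765 CPM at Babeni site 1 (Locus_1947_Transcript_3_4_, -1.89 ± 0.14 (SE), adjusted p = 1.7e-07). Another went from 243, 205 and 173 to 22.8, 32.4 and 30.7 CPM (Locus_1947_Transcript_1_4_, -2.84 ± 0.17). Zeaxanthin epoxidase, an enzyme of the xanthophyll cycle, did not pass, with 32.6, 28.2 and 36.9 and 15.3, 16.2 and 17.2 CPM (Locus_1009_Transcript_2_2_, -0.97 ± 0.19). Chlorophyll synthesis was split, with 4 of 24 risen and 7 fallen, both near the shares of all described transcripts, and the risen numbered 2 without Valcea replicate 2, Valcea replicate 3 or Babeni site 1 replicate 1. The counts were 2 and 4 with a pseudocount of 2 and 1 and 4 with a minimum of 5 CPM, and by DESeq2 2 rose. Chlorophyllide a oxygenase, which makes chlorophyll b, fell from 11.1, 21.8 and 21.3 to 1.15, 1.34 and 1.07 CPM (Locus_8702_Transcript_3_6_, -3.40 ± 0.31). A protochlorophyllide-like chloroplast transcript rose from 2.38, 1.42 and 0.564 to 11.7, 11.8 and 12.5 CPM (Locus_387_Transcript_3_4_, 2.79 ± 0.28).

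In carbon fixation, all 5 transcripts of the Rubisco small subunit, a part of the enzyme that fixes carbon dioxide, came from 1 locus and 4 fell. One had 3461, 3649.6 and 2881 CPM at Valcea and 1658, 1269 and 1648 CPM at Babeni site 1 (Locus_56_Transcript_9_10_, -1.13 ± 0.15 (SE), adjusted p = 6.4e-05), a call that quantile normalization ended. Rubisco activase, which frees the enzyme of inhibitors, had 0 of 6 fallen and 1 risen, with a median log2 difference of -0.56. Its transcripts together were lower at Babeni site 1, with 480 to 582 CPM at Valcea and 320 to 336 CPM at Babeni site 1. Glyceraldehyde-3-phosphate dehydrogenases had 16 of 32 fallen, from 4 of 7 loci, and 3 risen, from 1 locus. A chloroplast form had 2249, 2279 and 1967 CPM at Valcea and 869, 863 and 965 CPM at Babeni site 1 (Locus_333_Transcript_26_27_, -1.27 ± 0.12).

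Photorespiration recycles the product of oxygen fixation by Rubisco through peroxisomes and mitochondria. Its hydroxypyruvate reductases fell in 4 of 4 transcripts over 3 loci. One like HPR3 had 22.6, 16.1 and 11.5 CPM at Valcea and 1.15, 1.53 and 2.36 CPM at Babeni site 1 (Locus_889_Transcript_7_7_, -2.97 ± 0.32 (SE), adjusted p = 9.5e-06). A glyoxylate reductase had 275, 206 and 163 CPM at Valcea and 18.00, 18.5 and 17.6 CPM at Babeni site 1 (Locus_395_Transcript_12_13_), nearly equal libraries at the latter, with a log2 difference of -3.50 ± 0.17 (SE), adjusted p = 5.6e-09. Glycine decarboxylase and serine hydroxymethyltransferase, the mitochondrial steps, had 5 of 10 fallen and 0 risen, or 1 risen without Valcea replicate 2, and together held 2951 to 3167 CPM at Valcea and 1087 to 1173 CPM at Babeni site 1. Serine-glyoxylate aminotransferase had 4 of 10 fallen and 0 risen over 2 loci.

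Proteases and protease inhibitors had 46 of 103 transcripts fallen (44.7%) and 12 risen, with a median log2 difference of -0.96. With a pseudocount of 2 the fallen numbered 28 and the risen 5. The risen numbered 7 without Babeni site 1 replicate 1 or 2, 5 with a minimum of 5 CPM and 6 by DESeq2. FtsH zinc metalloproteases, which in chloroplasts clear damaged photosystem II protein, had 12 of 16 fallen, from 4 of 6 loci, and 0 risen. Without Valcea replicate 3 or Babeni site 1 replicate 3, 1 rose. The FtsH transcripts summed to 2268 to 2702 CPM at Valcea and 949.6 to 1092 CPM at Babeni site 1. One had 509.5, 597 and 599 CPM at Valcea and 199, 237 and 242 CPM at Babeni site 1 (Locus_5714_Transcript_5_6_, -1.33 ± 0.12 (SE), adjusted p = 2.3e-06), and an FtsH of another locus went from 448, 514 and 509 to 153, 177 and 184 CPM (Locus_3136_Transcript_6_8_, -1.51 ± 0.12). Subtilisin-like proteases were mixed, with 6 of 18 risen and 4 fallen, and 2 fallen without Valcea replicate 1 or Babeni site 1 replicate 1.

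Heat shock proteins and chaperones, which fold and refold proteins, had 30 of 96 transcripts fallen (31.3%) and 1 risen, with a median log2 difference of -0.79. The fallen share was near the 24.8% of all described transcripts, and the risen share, 1.04%, lay below their 20.7%. The fallen came from 15 of 51 loci and numbered 15 with a pseudocount of 2 and 19 with a minimum of 5 CPM. The risen numbered 2 without Valcea replicate 1 or 3, and 0 under these settings or by DESeq2. The fallen included 9 of 29 HSP70 and 9 of 29 DnaJ transcripts and 4 of 12 HSP90 transcripts, or 2 HSP90 without Babeni site 1 replicate 1. An HSP90-type cognate had 164, 137 and 107 CPM at Valcea and 44.4, 40.1 and 46.9 CPM at Babeni site 1 (Locus_1830_Transcript_9_11_, -1.61 ± 0.17 (SE), adjusted p = 6.7e-06). A heat shock cognate 70 kDa transcript did not pass, although its groups did not overlap, with 1082, 1098 and 914 and 523, 606 and 585 CPM (Locus_1034_Transcript_35_36_, -0.85 ± 0.12).

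Cytosolic ribosomal proteins had 19 of 37 transcripts fallen (51.4%) and 1 risen. The list holds 1 of the transcripts that were low in Valcea replicate 3. That 1 is the S10 transcript given above, whose fall was called in 1 of 6 fits that left out a library. Neither its description nor that of L12 below names a cell compartment, so whether they are cytosolic is uncertain. The fallen numbered 9 without Valcea replicate 2 and, for Babeni site 1, 11 without replicate 1 and 10 without replicate 3, against 16 without Valcea replicate 3. They numbered 12 with a pseudocount of 2 or without a mean trend, and 8 with a minimum of 5 CPM. The 1 risen passed in the fit without Valcea replicate 3 and in none of the other fits that left out a library. Ribosomal protein L12 had 20.7, 15.4 and 16.7 CPM at Valcea and 7.09, 7.82 and 8.17 CPM at Babeni site 1 (Locus_4747_Transcript_6_11_, -1.13 ± 0.19). Ribosomal protein L13a-1 had 1.99, 5.21 and 10.3 CPM at Valcea and 0.574, 0.572 and 0 CPM at Babeni site 1 (Locus_15519_Transcript_1_1_, -2.69 ± 0.45), at or below the level of 3 reads in the latter libraries.

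Phosphate acquisition had 14 of 18 transcripts fallen (77.8%), from 9 of 10 loci, and 0 risen. The median log2 difference was -1.38, and 12 to 14 fell without any single library. Its sum was 453, 423 and 366 CPM at Valcea and 137, 139 and 153 CPM at Babeni site 1. Its glycerol-3-phosphate transporter 1 had 73.5, 79.3 and 61.1 CPM at Valcea and 25.1, 25.8 and 26.9 CPM at Babeni site 1 (Locus_2826_Transcript_4_5_, -1.44 ± 0.14 (SE), adjusted p = 3.5e-06). A PHO1-like transporter, which in Arabidopsis exports phosphate to the xylem, went from 49.2, 44.7 and 48.2 to 10.7, 15.1 and 10.5 CPM (Locus_14091_Transcript_2_3_, -1.94 ± 0.17). ATP sulfurylase, which opens sulfate assimilation, had 86.97, 89.2 and 79.8 CPM at Valcea and 24.3, 25.95 and 29.2 CPM at Babeni site 1 (Locus_9987_Transcript_1_1_, -1.67 ± 0.13), 1 of 4 fallen among 9 sulfur assimilation transcripts. The sulfur count was 2 with a pseudocount of 2, with a minimum of 5 CPM or by DESeq2.

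Nitrogen uptake and assimilation moved both ways, with 24 of 53 fallen and 12 risen. Nitrate transporters had 11 of 16 fallen and 0 risen over 3 loci. Ammonium transporters had 6 of 8 fallen, from 4 of 5 loci, and 0 risen. A high affinity nitrate transporter had 423, 353 and 256 CPM at Valcea and 34.1, 26.3 and 32.7 CPM at Babeni site 1 (Locus_1335_Transcript_18_19_), widely spread at Valcea and far below in every Babeni site 1 library, with a log2 difference of -3.43 ± 0.17 (SE), adjusted p = 5.6e-09. Glutamine synthetase, which binds ammonium into glutamine, had 5 of 6 transcripts fallen, all of 1 locus. Asparagine synthetase, which makes the storage amide asparagine, had 10 of 14 risen and 0 fallen, over 5 loci, and summed to 202 to 249 CPM at Valcea and 445 to 538 CPM at Babeni site 1. Its log2 differences lay between 0.83 and 1.49, near the 2-fold limit, and 4 passed without Babeni site 1 replicate 2 and 3 passed without Valcea replicate 2 or Babeni site 1 replicate 3. The 12 risen of the whole list numbered 5 without any of the same 3 libraries, 7 in a fit of the 6 libraries alone, 2 with a pseudocount of 2, 3 with a minimum of 5 CPM and 6 by DESeq2.

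Among ion channels and transporters of potassium and anions, 10 of 17 fell and 2 rose, or 1 rose without Babeni site 1 replicate 1, with a pseudocount of 2, with a minimum of 5 CPM or by DESeq2. The fallen were the 4 transcripts of the SLAC1-like locus and 6 of 11 potassium transporters and channels, these 6 from 2 of 7 loci. The 10 fallen of the list thus came from 3 of its 10 loci. Potassium transporter 9 had 83.00, 79.5 and 84.5 CPM at Valcea and 25.7, 23.9 and 23.9 CPM at Babeni site 1 (Locus_3935_Transcript_11_13_), with near-equal libraries within each place and a log2 difference of -1.73 ± 0.13 (SE), adjusted p = 2.6e-07. Of 15 transcripts of metal transport and homeostasis 8 fell and 2 rose, over 6 and 2 loci. The fallen numbered 5 without Babeni site 1 replicate 2 or by DESeq2 and 4 with a pseudocount of 2 or a minimum of 5 CPM. The risen numbered 1 without Valcea replicate 3 or any single Babeni site 1 library and 0 under the same 3 settings. A ferric-chelate reductase, which reduces iron for uptake, had 449.9, 441 and 391 CPM at Valcea and 210.1, 172 and 175 CPM at Babeni site 1 (Locus_11791_Transcript_1_1_, -1.20 ± 0.14). Nicotianamine aminotransferase, which in grasses makes iron chelators, went from 10.3, 8.28 and 8.09 to 1.34, 1.91 and 2.15 CPM (Locus_584_Transcript_9_10_, -2.04 ± 0.25). A heavy metal transport and detoxification protein did not pass, with 40.9, 54.9 and 41.01 and 36.6, 23.5 and 32.5 CPM (Locus_507_Transcript_18_21_, -0.57 ± 0.18), and its groups did not overlap.

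Phenylpropanoid and flavonoid synthesis, the route from phenylalanine to lignin units, flavonoids and anthocyanins, had 46 of 77 transcripts fallen (59.7%) over 21 loci and 8 risen over 7, with a median log2 difference of -1.30. The risen numbered 5 without Babeni site 1 replicate 1, with a pseudocount of 2, with a minimum of 5 CPM or by DESeq2, and the fallen 30 with a minimum of 5 CPM. From the entry of the route on, phenylalanine ammonia-lyase fell in 12 of 12 transcripts over 4 loci and hydroxycinnamoyltransferase in 6 of 6 over 3. Chalcone isomerase and flavanone 3-hydroxylase each fell in 7 of 7 transcripts over 2 loci. Of the later steps, dihydroflavonol reductase fell in 1 of 4 and anthocyanidin synthase in 4 of 5. The ammonia-lyase with the most reads had 375, 450.3 and 328 CPM at Valcea and 70.1, 62.8 and 69.2 CPM at Babeni site 1 (Locus_8893_Transcript_3_4_, -2.49 ± 0.16 (SE), adjusted p = 4.1e-08). A hydroxycinnamoyltransferase, on the way to lignin units, went from 286, 264 and 195 to 37.3, 27.9 and 33.3 CPM (Locus_3303_Transcript_3_4_, -2.89 ± 0.15).

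Isoflavone reductases, named after an enzyme of isoflavonoid synthesis, went the other way, with 4 of 6 risen over 3 loci. One had 4.77, 4.02 and 3.198 CPM at Valcea and 25.1, 16.8 and 22.4 CPM at Babeni site 1 (Locus_7602_Transcript_5_6_, 2.28 ± 0.18). A transcript described as reduced epidermal fluorescence had 3.97, 6.86 and 5.46 CPM at Valcea and 34.1, 36.4 and 36.1 CPM at Babeni site 1 (Locus_9956_Transcript_4_5_), an even level at the latter, with a log2 difference of 2.63 ± 0.19 (SE), adjusted p = 1.4e-07. A dirigent protein, which guides the coupling of lignan precursors, did not pass, with 396, 304 and 336 and 388, 443 and 427 CPM (Locus_1907_Transcript_1_1_, 0.29 ± 0.13).

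**Figure D4:**
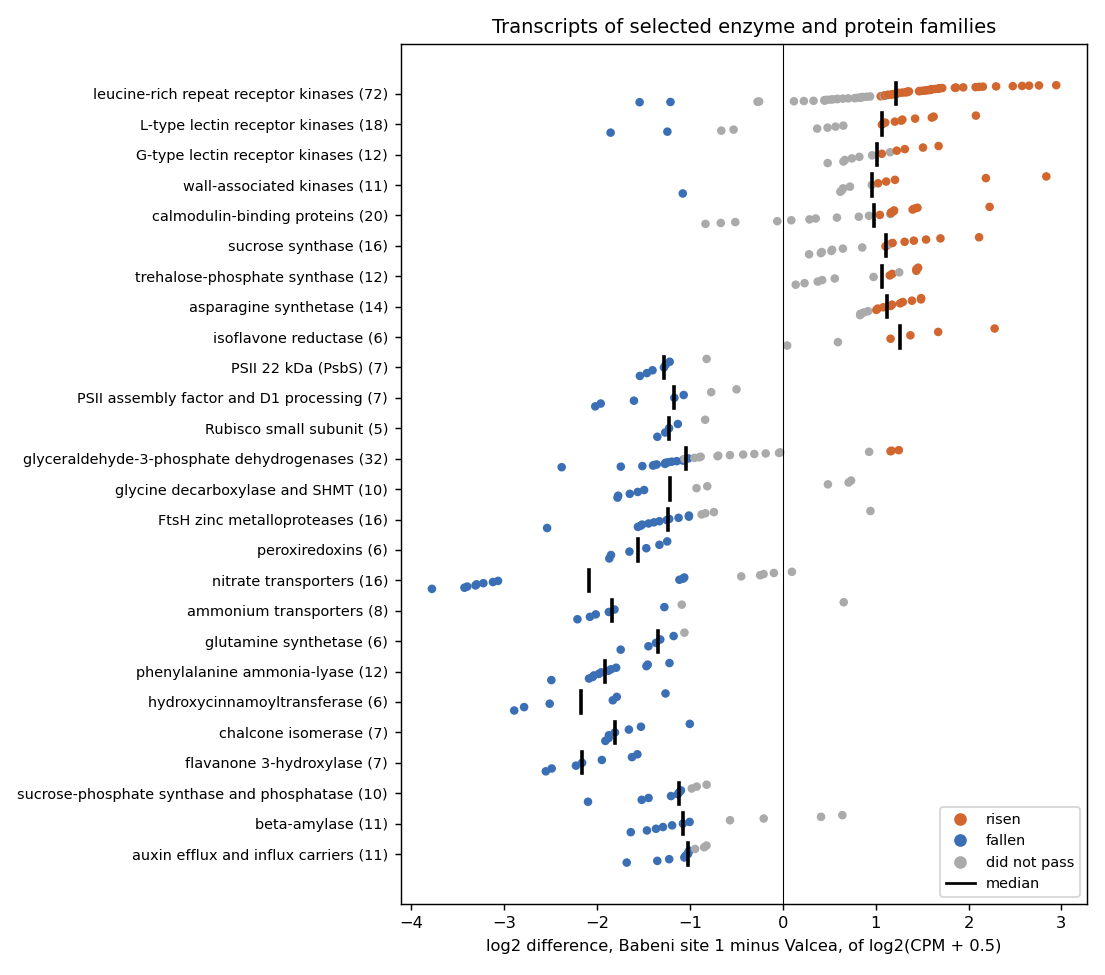
Log2 difference, Babeni site 1 minus Valcea, of each described transcript of 26 families, picked after their values were seen (number of tested transcripts in brackets), with risen, fallen and other transcripts in orange, blue and grey and a black bar at the median. Medians of the plotted families run from -2.17 for hydroxycinnamoyltransferase to 1.27 for isoflavone reductase. Not plotted are the SLAC1-like channel (-4.86), hydroxypyruvate reductases (-3.20) and cysteine-rich receptor-like kinases (1.67), which lie beyond these ends.

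Starch and sucrose metabolism as a whole stood near the shares of all described transcripts, with 16 of 87 risen and 20 fallen, or 10 and 13 with a pseudocount of 2. Sucrose synthase, which can split sucrose, had 8 of 16 risen and 0 fallen over 2 loci, and summed to 749.7 to 798 CPM at Valcea and 1787 to 1890.1 CPM at Babeni site 1. One transcript had 297, 300.0 and 258 CPM at Valcea and 712, 770.2 and 791 CPM at Babeni site 1 (Locus_326_Transcript_42_43_, 1.41 ± 0.11 (SE), adjusted p = 5.7e-07). Sucrose-phosphate synthase and phosphatase, the route of sucrose synthesis, had 7 of 10 fallen and 0 risen over 3 loci. The synthase with the most reads did not pass, although its groups did not overlap, with 871, 882 and 958 and 438, 484 and 504 CPM (Locus_3783_Transcript_10_11_, -0.93 ± 0.11). Beta-amylase, which releases maltose from starch, had 7 of 11 fallen, from 2 of 4 loci, and 0 risen. Trehalose-phosphate synthase had 5 of 12 risen and 0 fallen, with 3 risen without Valcea replicate 1. Pyruvate decarboxylase, the first step of ethanol fermentation, fell from 69.5, 57.3 and 39.3 to 6.89, 5.72 and 7.95 CPM (Locus_10391_Transcript_1_1_, -2.90 ± 0.21).

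Of 91 antioxidant and thiol enzyme transcripts 28 fell (30.8%) and 16 rose (17.6%), both close to the shares of all described transcripts. The fallen numbered 17 and the risen 5 with a minimum of 5 CPM, and the risen 5 with a pseudocount of 2 and 10 by DESeq2. Peroxiredoxins, which reduce peroxides through a reactive thiol, fell in 6 of 6 transcripts over 3 loci and summed to 334 to 347 CPM at Valcea and 110.3 to 128 CPM at Babeni site 1. Catalase, which breaks down hydrogen peroxide, was split over 2 loci, with 3 of 10 fallen and 2 risen. One catalase had 606, 690.5 and 706 CPM at Valcea and 259, 311 and 315 CPM at Babeni site 1 (Locus_209_Transcript_20_24_, -1.18 ± 0.12), a call that quantile normalization ended. A peroxidase did not pass, with 359.8, 340.0 and 289 and 531, 466 and 506 CPM (Locus_1537_Transcript_11_14_, 0.61 ± 0.13), although its Babeni site 1 libraries were all higher.

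Among hormone lists, auxin transcripts had 16 of 32 fallen over 12 loci and 2 risen. The fallen numbered 12 to 15 without any single library, 10 with a minimum of 5 CPM and 4 with a pseudocount of 2. The risen numbered 1 by DESeq2 or without Valcea replicate 1 or 2 or Babeni site 1 replicate 1 or 2, and 0 with that minimum or that pseudocount. Auxin carriers, which move the hormone between cells, had 8 of 11 fallen and 0 risen over 5 loci, or 5 without Valcea replicate 1 or Babeni site 1 replicate 2. Abscisic acid and drought transcripts had 6 of 21 risen and 4 fallen. With a pseudocount of 2 these counts were 1 and 1, with a minimum of 5 CPM 2 and 2, and by DESeq2 3 and 3. Abscisic acid 8'-hydroxylase, which breaks down abscisic acid, had 6.35, 8.99 and 8.84 CPM at Valcea and 30.8, 33.01 and 31.8 CPM at Babeni site 1 (Locus_5297_Transcript_3_4_, 1.93 ± 0.18 (SE), adjusted p = 2.9e-06). The abscisic acid responsive factor ABF2 fell from 46.5, 55.1 and 56.1 to 25.3, 21.4 and 24.3 CPM (Locus_12462_Transcript_1_1_, -1.13 ± 0.14). Ethylene transcripts had 8 of 28 risen and 5 fallen, or 8 fallen without Valcea replicate 3. An EIN2-like ethylene signalling protein fell from 35.3, 26.7 and 29.5 to 5.74, 8.21 and 6.66 CPM (Locus_11195_Transcript_7_10_, -2.08 ± 0.17). A gibberellin-regulated protein rose from 98.9, 101 and 94.8 to 244, 206 and 235 CPM (Locus_17933_Transcript_1_1_, 1.21 ± 0.13).

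Cell wall remodelling had 18 of 63 transcripts risen and 10 fallen, and the fallen numbered 6 without Valcea replicate 2. With a pseudocount of 2 the counts were 7 and 4, with a minimum of 5 CPM 10 and 5, and by DESeq2 5 fell. A pectin methylesterase, which changes how pectin is cross-linked, had 67.5, 61.8 and 46.1 CPM at Valcea and 207, 143 and 174 CPM at Babeni site 1 (Locus_283_Transcript_5_6_, 1.58 ± 0.17 (SE), adjusted p = 9.4e-06). An expansin of the B3 type, a wall-loosening protein, went from 37.7, 32.7 and 23.7 to 5.74, 6.11 and 3.87 CPM (Locus_6290_Transcript_12_15_, -2.47 ± 0.22). The tonoplast water channel TIP2-1 rose from 34.2, 35.3 and 31.4 to 86.2, 78.8 and 80.6 CPM (Locus_7450_Transcript_4_8_, 1.27 ± 0.13). All 3 risen aquaporin transcripts, of 8 tested, belong to its locus, and 1 passed with a pseudocount of 2.

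Of 34 clock and CONSTANS-like transcripts 2 rose and 3 fell, below the shares of all described transcripts. The risen numbered 4 without Valcea replicate 3 and 1 without Valcea replicate 1 or Babeni site 1 replicate 2. The counts were 1 and 1 with a pseudocount of 2, and 1 rose with a minimum of 5 CPM. The LHY-like clock factor, which peaks at dawn in Arabidopsis, had 86.97, 81.6 and 102 CPM at Valcea and 58.4, 79.95 and 65.99 CPM at Babeni site 1 (Locus_408_Transcript_39_41_), with a log2 difference of -0.41 ± 0.14 (SE), adjusted p = 0.066. A MYB-like factor had 152, 174 and 177 and 150.1, 168 and 155 CPM (Locus_2369_Transcript_1_1_, -0.09 ± 0.13), and its groups overlapped.

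The labels call the tissue shoots. Of 89 described green shoot markers 20 rose and 24 fell, near the shares of all described transcripts. The risen numbered 8 with a pseudocount of 2 and 11 with a minimum of 5 CPM. These markers summed to 16530 to 22200 CPM at Valcea and 10410 to 11989 CPM at Babeni site 1. The 1 described root marker had 1.19, 1.66 and 1.51 CPM at Valcea and 3.64, 2.86 and 2.79 CPM at Babeni site 1 (Locus_2891_Transcript_6_10_) and did not pass. Of markers of other organisms, 1 was described, a fucoxanthin-binding protein, which diatoms and brown algae carry. It had 21.8, 19.6 and 21.1 CPM at Valcea and 9.000, 8.59 and 11.2 CPM at Babeni site 1 (Locus_12779_Transcript_1_1_) and fell by 1.09 on the log2 scale, a call that a pseudocount of 2 ended. No described transcript matched the markers searched for cyanobacteria or animals. The part of algae on the shoots in other results was not tested.

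The difference between the Babeni sites was tested in the same limma fit, in which 3.18% of all tested transcripts changed between them. The named transcripts were chosen on the same Babeni site 1 libraries, which favours a gap to Babeni site 2 in the direction of the choice, so their values there are given side by side as a description. By the same limits, 8 of the 12 largest described rises changed between the Babeni sites, all higher at site 1. Of the 12 largest described falls 1 did, also higher at site 1. The RD21A-like proteinase stood at 11.4 ± 1.12 CPM (mean ± SD, n = 3) at Babeni site 2, a log2 difference between the Babeni sites of 2.25 ± 0.33 (SE, adjusted p = 0.00039). The YODA-like kinase stood at 3.05 ± 0.275 CPM there, a difference of 1.64 ± 0.22 (SE, adjusted p = 0.00018). The SLAC1-like channel was at 0.264 ± 0.156 CPM there and did not differ by the test, with 0.43 ± 0.27 (SE, adjusted p = 0.49). The early light-induced protein went further down, to 134 ± 18.7 CPM at Babeni site 2, so that Babeni site 1 lay between, with 2.46 ± 0.14 (SE, adjusted p = 6.5e-09) (Locus_1947_Transcript_3_4_).

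Of the changed transcripts 58.6% have no description. The largest rises among them with at least 10 CPM and no overlap between the places were Locus_79604_Transcript_1_1_ and Locus_45645_Transcript_3_3_. The first had 0, 0.473 and 0.188 CPM at Valcea and 2.87, 117 and 11.6 CPM at Babeni site 1, where replicate 2 alone carried most of the reads, with a log2 difference of 4.60 ± 0.98 (SE), adjusted p = 0.0042. The second was even, from 1.99, 0.947 and 0.753 to 30.8, 26.3 and 34.4 CPM (4.22 ± 0.23). The largest falls were Locus_63513_Transcript_1_1_, from 13.1, 11.6 and 9.22 to 0.383, 0 and 0.4299 CPM, and Locus_20107_Transcript_1_1_, from 134, 107 and 100.3 to 7.28, 8.01 and 5.804 CPM. The authors' deposited table of this comparison lists 6217 transcripts, 2699 up and 3518 down. Of the 5151 changed here 4949 (96.1%) are in the authors' deposited table, which is 79.6% of it, and all have the same sign there. Both sets of calls rest on the same libraries, so this overlap is no independent check.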

How the data were processed

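RNA extracted with TRI-Reagent was made into TruSeq stranded libraries, per the labels' protocols. The tools in the submitters' processing notes are edgeR 3.4.2, HTSeq 0.5.3p9, TopHat2 2.0.11 and BWA 0.7.10, with no roles. Assembly and annotation are not given in the sources used here. For each transcript the authors deposited a signal, called CPM from edgeR in the table's name, with library factors that differ. Their comparison tables, as deposited, hold the authors' log2 fold changes and p-values, per the file headers, and list only transcripts the authors called changed. Their descriptions, for 4728 transcripts, were the sole source of names, and 4 of their rows were not used here.

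Divided by the value of 1 read, 100% of a library's values came within 0.01 of whole numbers, so reads were recovered and served as depth and for edgeR 4.0.16 and DESeq2 1.42.0. The planned test was kept: limma 3.58.1 (R 4.3.3) with a mean trend on log2(CPM + 0.5), over transcripts reaching 1 CPM in 3 or more of the 9 Elodea libraries, which shared 1 spread, without covariates. The procedure was tested on simulated data. All comparisons are within 1 table.

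Members and lists were chosen with earlier results of these data known, and families within lists after list results were seen. Lists were matched by words in the descriptions. Named transcripts are the 12 largest rises and 12 largest falls among called, non-overlapping, described transcripts with at least 10 CPM at the higher place, 1 per locus. To these come the 2 most abundant per list, the largest change per list with at least 5 CPM, and 2 risen and 2 fallen without description. Alternatives were other pseudocounts, filters, scalings and models, each library left out, and sums per locus. Chlamydomonas was not analysed here.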

Additional observations from a re-analysis of the deposited data

How the results depend on the processing

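Against 2369 risen, 2782 fallen and 5151 changed transcripts, a pseudocount of 2 gave 679, 1390 and 2069. A minimum of 5 CPM gave 958, 1478 and 2436, and sums per locus 1536, 1823 and 3359 loci. The adjusted p alone gave 4343, 4917 and 9260. DESeq2 gave 1295 risen, 2031 fallen and 3326 changed. With 1 library left out, the counts ran from 1695 to 3432 risen, 2266 to 3333 fallen and 4080 to 6765 changed, each highest without Valcea replicate 3. The other alternatives stayed within 1.5 times, among them edgeR with 2016 risen and 2938 fallen.

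The labels number the replicates of each place. Residuals of same-numbered libraries of the 2 places correlated at 0.03, -0.10 and -0.08, so the numbers were not taken as pairs, and with a replicate block the counts were 2201 risen, 2654 fallen and 4855 changed.

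Over named transcripts and alternatives, 2908 results stayed called or uncalled as in the main fit, 80 gained a call and 62 lost one. In 0 did the direction reverse where either fit called the transcript. Reversals between 2 fits without a call were not counted. Of 387 shifts of a list count past 1.5 times, 77 came with a pseudocount of 2, 65 with a minimum of 5 CPM, 38 by DESeq2 and 32 with the adjusted p alone. Families were recomputed only without single libraries and under other scalings, and no list or family median changed sign with median centring or quantile normalization. Depth limits transcripts near 1 CPM, the level of a few reads.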

Other observations

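Other described groups changed in smaller or mixed shares. Cytoskeleton and vesicle traffic had 21 of 89 transcripts risen and 9 fallen, and the risen numbered 7 with a pseudocount of 2 and 10 with a minimum of 5 CPM. A myosin 2-like motor protein, which moves organelles along actin, had 336, 296 and 258 CPM at Valcea and 467, 429 and 471 CPM at Babeni site 1 (Locus_5611_Transcript_1_1_) and did not pass, with a log2 difference of 0.62 ± 0.12 (SE), adjusted p = 0.002 by limma. An alpha-6 tubulin, a microtubule subunit, fell from 25.4, 17.3 and 16.6 to 2.68, 3.82 and 5.37 CPM (Locus_2731_Transcript_1_3_, -2.20 ± 0.24). Lipid metabolism had 24 of 101 risen and 23 fallen, near the shares of all described transcripts. The counts were 5 and 13 with a pseudocount of 2 and 9 and 14 with a minimum of 5 CPM. A fatty acyl reductase, which makes fatty alcohols of surface waxes, fell from 21.8, 19.9 and 23.7 to 3.83, 3.82 and 3.22 CPM (Locus_4895_Transcript_8_9_, -2.44 ± 0.23). Ubiquitin ligases and F-box proteins, which mark proteins for breakdown, had 33 of 156 risen and 27 fallen, near the shares of all described transcripts. The risen numbered 19 without Valcea replicate 2 and 20 without Babeni site 1 replicate 3, and the fallen 17 without Valcea replicate 1. The counts were 8 and 7 with a pseudocount of 2 and 8 and 11 with a minimum of 5 CPM, and by DESeq2 13 rose.

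Among transcription factors, a bHLH30-like factor fell from 31.8, 18.7 and 18.8 to 3.06, 3.82 and 4.51 CPM (Locus_7214_Transcript_3_3_, -2.43 ± 0.26). A MYB repressor of the C2 type, of a family that represses phenylpropanoid genes in other plants, fell from 8.74, 7.57 and 8.09 to 0.574, 1.14 and 0.645 CPM (Locus_2457_Transcript_1_1_, -2.77 ± 0.32). A two-component response regulator like ARR9, a negative regulator of cytokinin signalling in Arabidopsis, fell from 19.5, 15.1 and 16.6 to 3.06, 5.34 and 4.73 CPM (Locus_7127_Transcript_2_2_, -1.87 ± 0.20). It stood at 17.8 ± 0.943 CPM (mean ± SD, n = 3) at Babeni site 2, and the log2 difference between the Babeni sites was -1.94 ± 0.20 (SE, adjusted p = 9.4e-06) by limma. Carotenoid cleavage dioxygenase 1, which cuts carotenoids into volatile products, rose from 150.1, 174 and 206 to 354, 376 and 381 CPM (Locus_12189_Transcript_1_1_, 1.08 ± 0.12), a call that ended without Valcea replicate 1.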
